A study of Mus musculus with 4 samples.

Results

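MicroRNAs numbered 1000 or higher in the miRBase catalogue were examined in small RNA libraries from 4 mouse cell populations. Members were all mature sequences of the deposited table named miR- with such a number, leaving out 3 names, with the values of each name added over its hairpins. The rule took 327 of the 1078 mature miRNAs in the table, and the other 751 served as the comparison. By number, 118 members fell in the block that starts at 1000, 6 in that from 2000, 139 in that from 3000 and 64 in that from 5000.

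All cells came from C57BL/6J mice and each population gave 1 library, so no comparison has a replicate check and no p-value is given. HSC are c-Kit+ Sca1+ lineage-negative haematopoietic stem cells sorted from bone marrow. For immature dendritic cells (imDC), femur bone marrow of mice aged 5 to 6 weeks was cultured for 6 days with GM-CSF at 10 ng/mL and IL-4 at 1 ng/mL. Mature dendritic cells (maDC) had the same cytokines, LPS at 10 ng/mL from day 4, and CD11c bead selection at day 8. Regulatory dendritic cells (DCreg) were obtained by seeding maDC on endothelial-like splenic stromal cells for 7 days or longer, so the stromal culture separates DCreg from maDC. In bulk libraries, fewer cells that carry a miRNA and less of it per cell cannot be told apart.

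A miRNA is cut from a hairpin first by Drosha with its partner Dgcr8 and then by Dicer, which leaves a duplex of about the length of a mature miRNA with precise ends. The strand kept by an Argonaute protein finds its targets mainly through the seed, bases 2 to 8 from the 5′ end, so the start position of a read fixes the seed. Catalogue numbers follow the order of registration, and most high numbers were added when short-read sequencing of small RNAs became common. Fragments of tRNAs, snoRNAs and other structured RNAs are of similar size and are sequenced alongside.

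The sequences below come from the deposited table and read lists, 5′ to 3′. The first set shows members that lead the read counts or differ widely between libraries, with the seed in capitals. All are read-backed by the limit given later except miR-1965, which is partly backed.
miR-1839-5p: aAGGTAGAtagaacaggtcttg
miR-1981-5p: gTAAAGGCtgggcttagacgtggc
miR-5114: aCTGGAGAcggaagctgcaaga
miR-1956: aGTCCAGGgctgagtcagcgga
miR-1965: aAGCCGGGccgtagtggcgca
miR-1983: cTCACCTGgagcatgttttct
miR-1941-5p: aGGGAGATgctggtacagaggctt

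The second set shows members with large deposited values and few or no exact reads, seed in capitals, each followed by the commonest read of another kind. For miR-2182 that is a read of the opposite strand, shown after the reverse complement of the mature sequence. For miR-5097, miR-5115 and miR-3968 it is the commonest read with 1 or 2 mismatches, and there capitals mark bases that differ from the mature sequence or lie outside it. For miR-5126 and miR-5111-5p it is the commonest read with an exact shared stretch and another start.
miR-2182: aCGCCACAtttcccacgccgcg
miR-2182 reverse complement: cgcggcgtgggaaatgtggcgt
read opposite to miR-2182: gtgggaaatgtggcgtacggaaga
miR-5097: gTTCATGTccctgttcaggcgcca
read near miR-5097: tcaGgtccctgttcGggcgcca
miR-5115: cTGGACGCgagctgggccc
read near miR-5115: TctggacgcgagcCgggcccT
miR-3968: cGAATCCCactccagacacca
read near miR-3968: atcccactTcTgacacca
miR-5126: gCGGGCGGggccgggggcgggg
read overlapping miR-5126: cgcgcgggcggggccgggg
miR-5111-5p: tAGCTCAGtggtagag
read overlapping miR-5111-5p: ggggatgtagctcagtggtagag

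The third set pairs members with a miRNA of the catalogue's earlier numbers that they resemble, and capitals mark the member's differing bases.
miR-3962: aggtagtagtttgtacaTtt
let-7g-5p: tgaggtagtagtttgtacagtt
miR-3970: gaggtTgtagtttgtgctTt
let-7i-5p: tgaggtagtagtttgtgctgtt
miR-3969: ccCtaaagtagaaaTcacta
miR-142-5p: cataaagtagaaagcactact
miR-3971: ctcccCacccCtgtaccagtga
miR-150-5p: tctcccaacccttgtaccagtg

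Deposited values add up to 4226458 (HSC), 5251069 (imDC), 4475569 (maDC) and 2725948 (DCreg). The read lists hold 6277096, 6554086, 6572858 and 4904897 reads in the same order, and between 80.2% and 84.0% of them were counted on a mature sequence of the table by exact match. Markers were read beside the labels on the recounted scale, as reads per 1000000 counted in the library (ppm). The blood miRNA miR-142-5p lay between 5170 and 10651 ppm in all 4 libraries, while in the order HSC, imDC, maDC, DCreg miR-142-3p was 573, 575, 185 and 49.6 ppm and the myeloid miR-223-3p 2085, 1796, 423 and 396 ppm, both lowest in DCreg. In the same order the activated dendritic cell miRNA miR-155-5p stood at 29.6, 2185, 1114 and 87.7 ppm, higher in imDC than in the LPS-treated maDC. The progenitor miR-196b-5p stood at 130, 22.4, 1.45 and 6.87 ppm. The lymphoid miR-150-5p stood at 484, 10.1, 0.362 and 0.763 ppm, and the endothelial miR-126-3p at 27.5, 1.14, 0.362 and 0.254 ppm. The erythroid miR-451 stood at 5584 ppm in HSC, 12.9 ppm in imDC, 0 in maDC and 0.763 ppm in DCreg. The muscle miRNA miR-1a-3p stood at 22172 ppm in HSC, 28.1 ppm in imDC, 43.1 ppm in maDC and 331 ppm in DCreg, and its part in any result below was not tested.

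Members held little of each library, and less of the reads than of the deposited table. In deposited values their share was 1.02% (HSC), 1.23% (imDC), 1.51% (maDC) and 1.21% (DCreg). In recounted reads it was 0.418% in HSC, with a 95% Clopper-Pearson interval of 0.412 to 0.423, and 0.601% in imDC (0.594 to 0.607). It was 0.520% in the maDC library (0.514 to 0.526) and 0.344% in the DCreg library (0.338 to 0.350). The share was highest in maDC by deposited values and in imDC by reads. These intervals, and those below, cover counting error only.

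**Figure D1:**
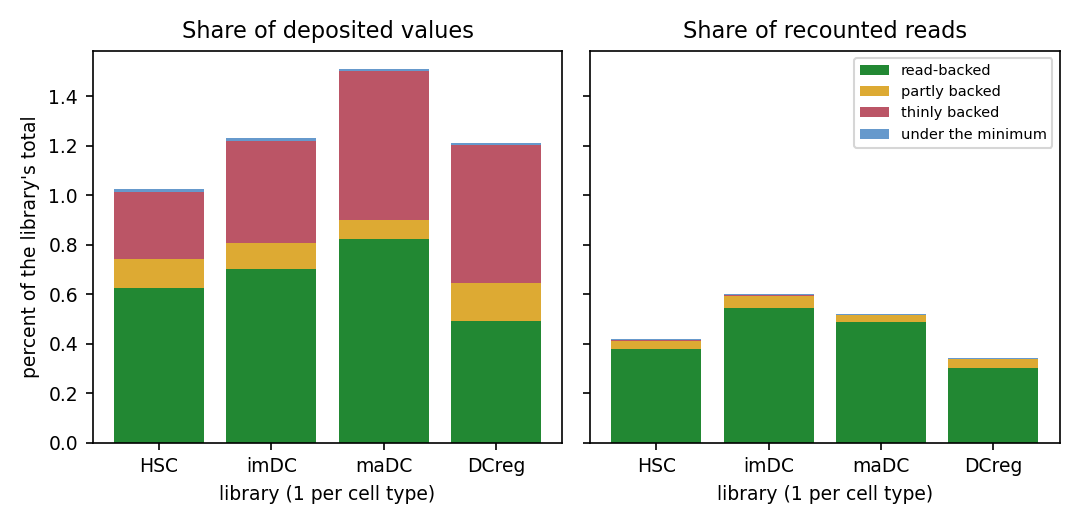
Members' share of each library, in percent of the library's total, for deposited values (left) and recounted reads (right), with 1 bar per library stacked by read support class. Thinly backed members fill 0.602% of the maDC column and 0.00225% of the maDC reads.

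Read support was the number of recounted reads divided by the deposited value, both added over the 4 libraries. It was read for the 141 members with a deposited value of at least 30. A member was called read-backed at a ratio of at least 0.5, thinly backed under 0.1, and partly backed between these. Of the 141 members, 57 (40.4%) were read-backed, 35 (24.8%) partly backed and 49 (34.8%) thinly backed. Over all 524 miRNAs at the minimum, 71.9% were read-backed and 16.4% thinly backed. Among the 383 other miRNAs, 320 (83.6%) were read-backed and 37 (9.66%) thinly backed.

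The median ratio was 0.357 for members and 0.716 for the other miRNAs. No recounted read was found for 31 of the 141 members and for 20 of the 383 other miRNAs. Abundant other miRNAs were among the thinly backed, such as miR-191-5p, deposited at 565436 with 0 recounted reads. For miR-320-3p the values were 225132 and 14939, and for miR-130a-3p 4766 and 0. A low ratio was thus not particular to members, and whether it comes from the match rule was not tested. Summed over all miRNAs the ratio was 1.23 (HSC), 1.00 (imDC), 1.23 (maDC) and 1.44 (DCreg), so a ratio of 1 is not a fixed reference for single miRNAs. Around the limits, miR-1946b at 0.0828 and miR-3471 at 0.103 lay on either side of 0.1, and miR-3062-5p at 0.469 and miR-3102-5p.2-5p at 0.508 on either side of 0.5.

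**Figure D2:**
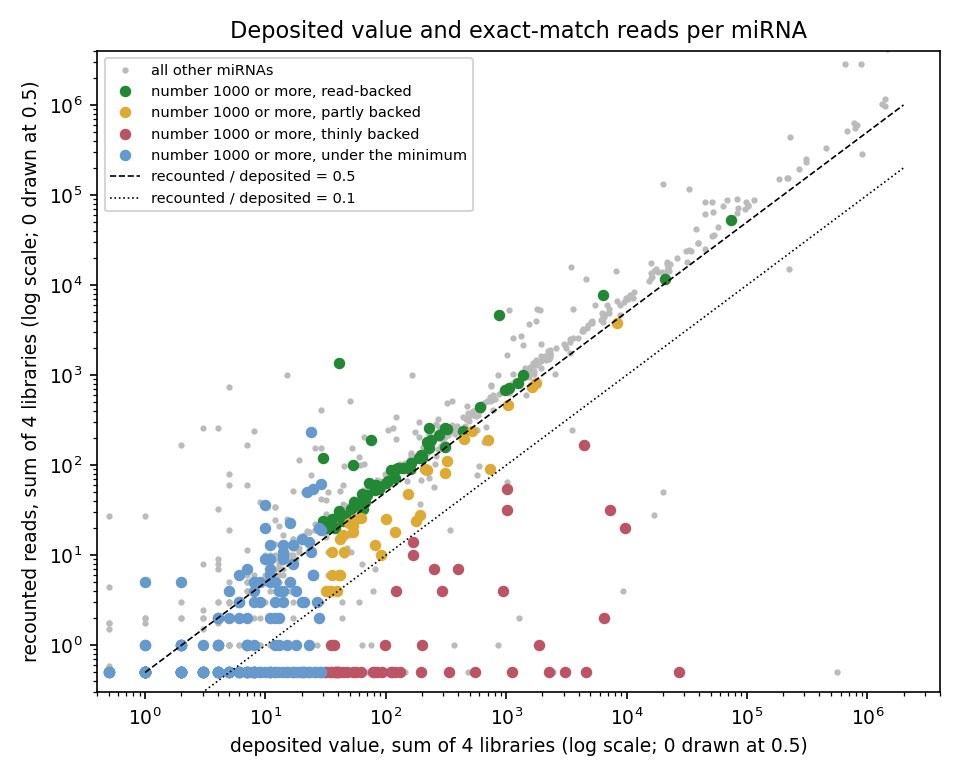
Deposited value (x axis) against recounted reads (y axis) for each miRNA, both added over 4 libraries on log scales, with values of 0 drawn at 0.5 and lines at ratios of 0.5 and 0.1. Of the members at or over a deposited value of 30, 57 lie on or above the upper line and 49 below the lower line, among them miR-2182 at 27117 and 0 reads.

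Thin support was unevenly spread over the catalogue numbers. It was found for 19 of 71 members in the block from 1000, 4 of 4 in that from 2000, 11 of 39 in that from 3000 and 15 of 27 in that from 5000. The median ratio was 0.449, 0, 0.419 and 0.0270 in the same order. Members named without an arm (no 5p or 3p) were thinly backed in 33 of 76 cases, against 16 of 65 members that name an arm. The same split among the other miRNAs gave 6 of 14 without an arm and 31 of 369 with one. Single libraries gave 23 thinly backed of 62 members in HSC, 25 of 76 in imDC, 26 of 62 in maDC and 19 of 44 in DCreg, against 17 of 274, 14 of 292, 17 of 243 and 16 of 215 other miRNAs.

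Base composition and place in the annotation differed between the classes. The median GC content was 52.2% in the 57 read-backed members, 59.1% in the partly backed, 60% in the 49 thinly backed and 47.6% in the other miRNAs at the minimum. The mature sequence lay in no GENCODE M21 transcript for 7 of the 49 thinly backed members, against 1 of 57 read-backed and 1 of the 383 other miRNAs. Small RNA genes of the sno, sca or misc type held the sequence of 10 of 57 read-backed, 4 of 35 partly backed and 1 of 49 thinly backed members, against 4 of the 383 other miRNAs. The genome build behind the deposited values was not given in the sources used here, and positions below are RefSeq positions on GRCm38.p6, which were found for 264 of the 327 members.

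The largest member by either measure was miR-1839-5p, on chromosome 7 from 81529919 to 81529940 on the plus strand, inside an annotated scaRNA, a class of guide RNA of the Cajal body, and an exon of the long noncoding RNA 2900076A07Rik. Its deposited value was 19490 (HSC), 21077 (imDC), 25210 (maDC) and 8542 (DCreg). Its recounted reads were 13507, 15436, 17745 and 6599. It held between 25.9% and 45.0% of the members' deposited values and between 48.8% and 62.2% of their reads. Scaled to the library's reads it differed by 1.13-fold (1.10 to 1.15) between imDC and HSC and was 1.91-fold lower (1.86 to 1.97) in DCreg than in maDC. Its other arm, miR-1839-3p, had 81, 78, 27 and 32 reads.

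The next read-backed member was miR-1981-5p, in an intron of Marc2, a mitochondrial amidoxime-reducing enzyme gene, on chromosome 1 from 184822465 to 184822488 on the minus strand. Its deposited value was 3097 (HSC), 8711 (imDC), 6226 (maDC) and 2662 (DCreg), against 1717, 4767, 3412 and 1878 reads. Read levels were 2.74-fold higher (2.59 to 2.90) in imDC than in HSC, 1.46-fold lower (1.40 to 1.53) in maDC than in imDC and 1.29-fold lower (1.22 to 1.37) in DCreg than in maDC. The imDC library thus held the highest level and HSC the lowest, on both scales.

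In the untranslated part of Scd2, a stearoyl-CoA desaturase gene, lay miR-5114, on chromosome 19 from 44303171 to 44303192 on the plus strand. Its deposited value was 638 (HSC), 2373 (imDC), 2473 (maDC) and 921 (DCreg), and its reads were 813, 3094, 2757 and 1105. It was 1 of 7 members at the minimum whose reads exceeded the deposited value. Read levels were 3.75-fold higher (3.47 to 4.06) in imDC than in HSC and 1.78-fold lower (1.66 to 1.91) in DCreg than in maDC.

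Among members with a deposited value of at least 30, reads exceeded it by the widest ratios for miR-3962 and miR-3473b. For miR-3962 the deposited value was 18, 11, 11 and 1 in HSC, imDC, maDC and DCreg, and the recount gave 546.5, 414.5, 321 and 77 reads, a ratio of 33.1. Its sequence is that of let-7g-5p from base 3 except for 1 base (T18G, member base first, counted from 1 at the member's 5′ end). Its commonest read, tgaggtagtagtttgtacattt, had 90, 54, 63 and 11 copies and carries the 2 first bases of let-7g-5p. Whether such reads are copies of let-7g-5p with a changed base or transcripts of the miR-3962 locus was not tested. For miR-3473b, the deposited value was 298, 229, 231 and 116 and the reads were 1050, 1678, 789 and 1182. Its sequence was found on the same strand in 359 annotated genes, so these reads cannot be placed.

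Reads of members started less often at the annotated base than those of the other miRNAs by the median, though the lowest share was 0 in both groups. Among recounted reads, which start within 2 bases of the annotated base, the share starting at that base had a median of 84.2% over 38 members with at least 100 such reads, against 98.2% over 278 other miRNAs. The shares below are over all reads that share at least 16 bases with the member, wherever they start. The start was near exact for miR-1981-5p, at 99.9% of 12106 reads. For miR-1839-5p 78.9% of 57884 reads began at the annotated base and 20.3% began 1 base later, which moves the seed by 1 base. For miR-5114 the share at the annotated base was 56.9%, and the second commonest read, aactggagacggaagctgcaaga, began 1 base earlier with 194, 746, 431 and 77 copies.

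Some members were sequenced almost only from another start. For miR-5099, with 6663 reads, 57.6% began 2 bases before the annotated start and 0.195% at it. Its deposited value was 1040 (HSC), 2124 (imDC), 1854 (maDC) and 3319 (DCreg), against 316, 1167, 1071 and 1288 recounted reads, and DCreg was the highest on the read scale at 328 ppm. Of 265 reads of miR-1306-5p, 94.0% began 2 bases after the annotated start. The shift was 3 bases upstream for 82.1% of 1062 reads of miR-5126, 3 bases downstream for 63.8% of 4906 reads of miR-3963, and 7 bases upstream for 97.7% of 1908 reads of miR-5111-5p. The recount took starts within 2 bases, and these last 3 members were thinly backed.

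**Figure D3:**
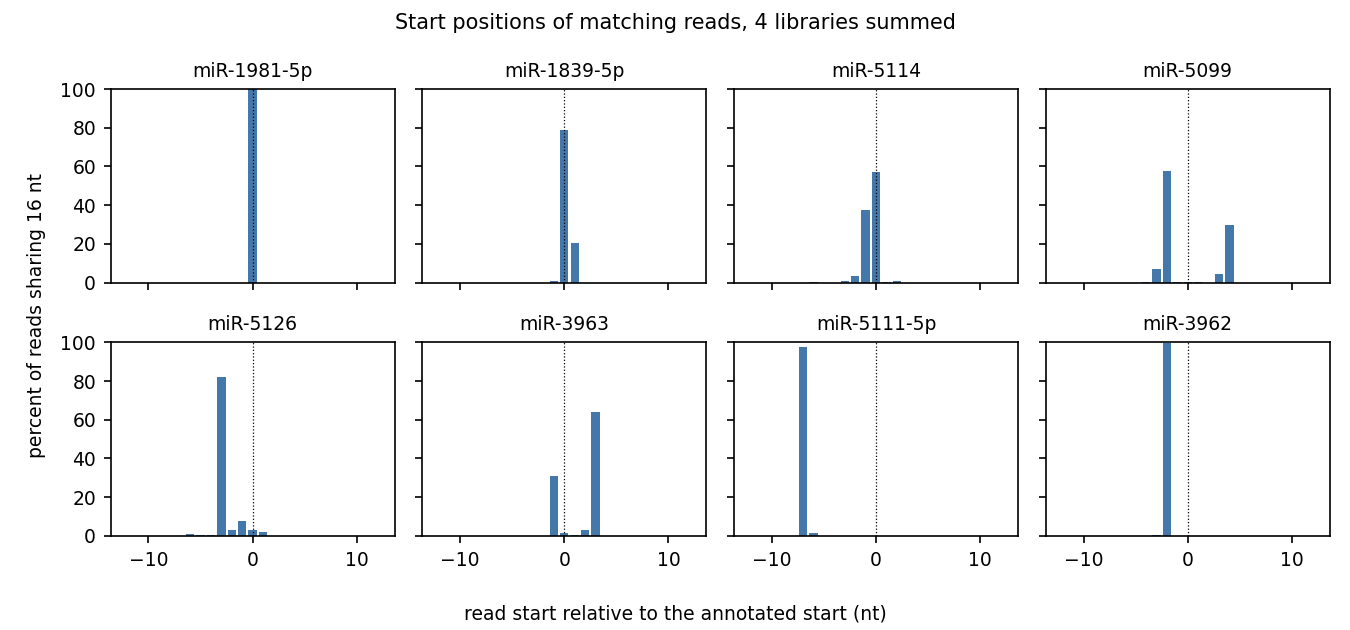
Percent of matching reads (y axis) by the distance of the read start from the annotated start in nt (x axis, negative is upstream), 4 libraries added, for 8 members. For miR-1981-5p 99.9% of reads begin at the annotated base, while miR-5126 peaks 3 nt upstream and miR-5111-5p 7 nt upstream. Reads drawn for miR-3962 share an exact stretch with it and are mostly let-7g-5p.

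Among the 49 thinly backed members, other kinds of read were sought after the recount had been seen. Reads with an exact stretch of at least 16 bases at any position reached 0.5 of the deposited value for 5 members. Reads of the opposite strand reached it for 2, and reads with 1 or 2 mismatches starting within 4 bases for 14. For miR-1928, miR-1935, miR-3964, miR-3969 and miR-3971, most reads with mismatches were counted on another miRNA. At least 1 of the 3 kinds reached 0.5 for 18 members, and none reached 0.1 for 19. These counts were made for thinly backed members only, so no share over other miRNAs is given. Whether the authors' values were made from reads of these kinds was not tested, because the labels do not say which mismatches and strands were allowed.

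The largest thinly backed member was miR-2182, deposited at 884 (HSC), 8922 (imDC), 9466 (maDC) and 7845 (DCreg). It had 0 recounted reads in each library, which allows up to 3 reads. Reads of the opposite strand numbered 344, 1030, 2804 and 3368, and the commonest had 0, 152, 273 and 779 copies. Scaled to the library, the deposited values were 209, 1699, 2115 and 2878 ppm and the opposite-strand reads 66.2, 195.5, 508 and 856 ppm of the recounted reads, so both ordered the libraries the same way, with HSC lowest and DCreg highest.

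Opposite-strand reads also exceeded the deposited values of 2 members that lie across from a known miRNA hairpin. For miR-3074-2-3p, which faces the hairpin of miR-24-2, deposited values were 14, 73, 19 and 13 in HSC, imDC, maDC and DCreg, with 0 recounted reads and 41, 221, 52 and 66 opposite-strand reads. For miR-3065-5p, which faces the hairpin of miR-338, they were 26, 54, 11 and 2, with 0 recounted reads and 74, 163, 37 and 9 opposite-strand reads. In both, imDC was the highest library on either count.

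Reads ending in the bases cca, the tail that every mature tRNA carries, stood near several thinly backed members. For miR-5097 the deposited value was 1899, 4203, 487 and 743 in HSC, imDC, maDC and DCreg, with 6, 24, 1 and 1 recounted reads and 748, 1820, 141 and 41 reads with 1 or 2 mismatches. The commonest of these, which ends in cca, had 347, 866, 63 and 12 copies. Its imDC count was the highest and its DCreg count the lowest, whereas the deposited value was lowest in maDC. For miR-3968 the deposited value was 680, 827, 303 and 447, with 0 recounted reads and 1584, 1922, 640 and 1131 reads with mismatches. Its commonest such read, with 661, 1011, 433 and 898 copies, is also the commonest exact-stretch read of miR-3963, deposited at 247, 352, 143 and 271. That these reads are tRNA fragments was not tested.

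For 3 thinly backed members with large deposited values and GC-rich sequences, maDC was the highest library. For miR-5126 the deposited value was 122 (HSC), 148 (imDC), 4052 (maDC) and 67 (DCreg), with 22, 27, 99 and 18 recounted reads. Reads with an exact stretch numbered 42, 52, 943 and 25, and the commonest had 3, 6, 572 and 6 copies, so maDC was highest on each count. For miR-1895 it was 199, 222, 2226 and 449, with no recounted read and 76, 83, 944 and 248 reads with mismatches. For miR-5115 it was 1820, 1406, 2425 and 802, with 0, 1, 1 and 0 recounted reads and 419, 217, 974 and 255 reads with mismatches. The maDC column was the highest for all 3 by deposited value and by reads with mismatches. Other GC-rich members of this class varied. In HSC, imDC, maDC and DCreg, miR-2137 was deposited at 14, 44, 119 and 23. It had 13, 69, 78 and 46 reads with mismatches, so maDC was highest on both counts. For miR-3960 and miR-5105 maDC was not the highest. The deposited value of miR-3960 was 68, 23, 23 and 18 in HSC, imDC, maDC and DCreg, and that of miR-5105 was 28, 215, 116 and 38.

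For other thinly backed members, none of the 3 other kinds of read reached 0.1 of the deposited value. For miR-5103, with deposited values of 1052, 1799, 3876 and 2996 in HSC, imDC, maDC and DCreg, the recount gave 4, 13, 3 and 0 reads, none was on the opposite strand and 2 had mismatches. For miR-3473c, deposited at 653, 407, 563 and 241, 1 read was recounted. For miR-5109, deposited at 1731, 950, 1547 and 385, no read was recounted. Reads with an exact stretch numbered 23, 92, 53 and 15, and 361 reads had mismatches, which lay mostly in imDC with 239.

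**Figure D4:**
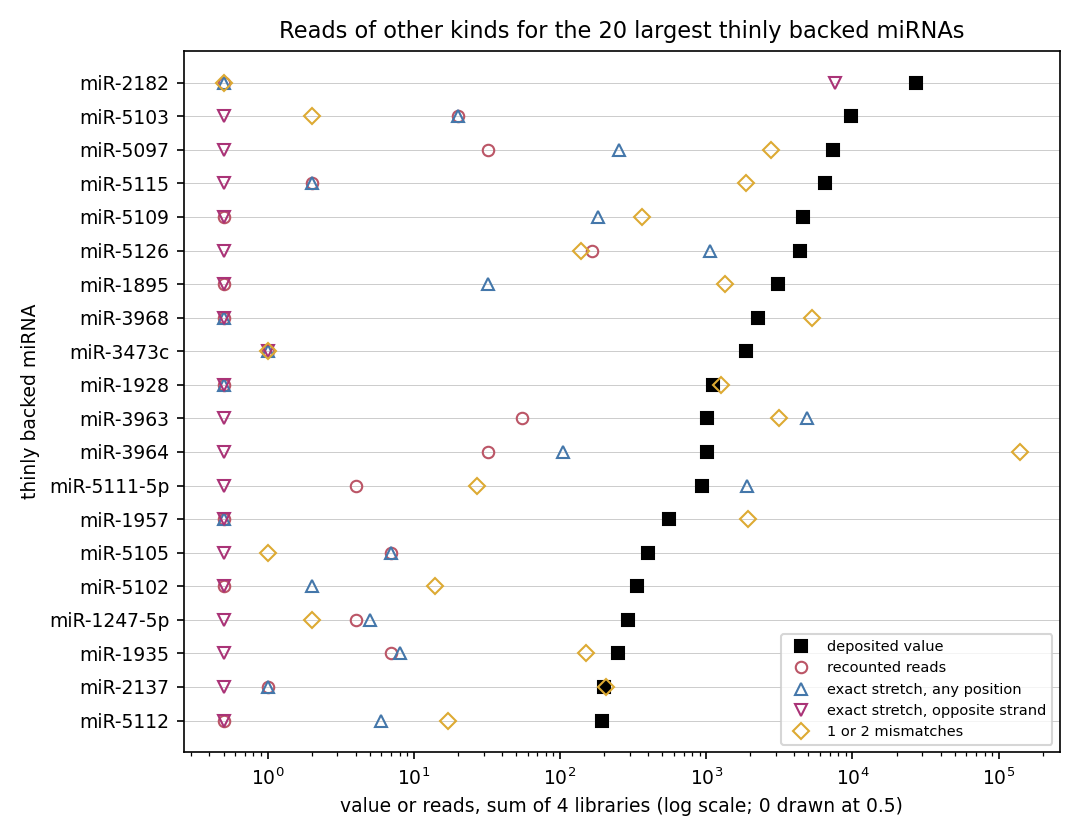
The 20 thinly backed members with the largest deposited value, with the deposited value and 4 kinds of read counts added over the 4 libraries (x axis, log scale, 0 drawn at 0.5). Reads with mismatches pass the deposited value for miR-3968, miR-1928, miR-3963, miR-3964, miR-1957 and miR-2137, while miR-5103 has 20 recounted reads against a deposited value of 9723.

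A few members differ from a miRNA of lower number, abundant or not, at 1 or 2 bases. Over at least 16 aligned bases, 12 of the 327 members lay within 2 mismatches of a miRNA with a lower number, against 211 of the 751 other miRNAs among themselves, which include families such as let-7. Of the 12, 7 fall in the block from 3000. Recounted reads were few for most of them. For miR-3970, which is let-7i-5p with T6A and T19G, the deposited value was 739 and the recount 90 reads. For miR-3969 (miR-142-5p with C3A and T15G) it was 111 and 0, and for miR-3971 (miR-150-5p with C6A and C11T) it was 35 and 0.

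Reads that miss a member by 1 or 2 bases were sought for thinly backed members only. For miR-3969, miR-142-5p held 91.5% of 162962 such reads, and for miR-3971, miR-150-5p held 98.2% of 2230. For miR-1935, miR-709 held 54.7% of 150. Of 139676 such reads of miR-3964, which is not among the 12, miR-142-5p held 85.4%. The deposited value of miR-3964 was 530 (HSC), 114 (imDC), 219 (maDC) and 150 (DCreg), highest in HSC and lowest in imDC. In the same order miR-142-5p stood at 10651, 6752, 7540 and 5170 ppm, highest in HSC but lowest in DCreg. A member of another kind, miR-1928, shares the seed GCTACAT with miR-221-3p and miR-222-3p, and miR-221-3p held 58.6% of its 1261 reads with mismatches. Over all members at the minimum, 139 different seeds were found and 4 members shared theirs with a miRNA of lower number.

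Differences between libraries were read on both scales, and a member was compared where it reached 100 ppm in 1 of the 2 libraries. A member was called at a difference of at least 2-fold. On the read scale, the median log2 ratio over all miRNAs so compared was 0.416 for imDC against HSC. It was -1.28 for maDC against imDC and -0.342 for DCreg against maDC. The read folds of single members, above and below, were not adjusted for these medians. Between imDC and HSC, 4 of 17 members were higher in deposited values, with 26.2% of all miRNAs compared, and 3 were lower, with 28.3%. Those higher were miR-1981-5p, miR-1983, miR-2182 and miR-5114, and those lower miR-1306-3p, miR-3964 and miR-5109. On the read scale 7 members reached 100 ppm, of which 4 were higher (36.7% of all miRNAs) and 0 lower (18.4%). The 4 were miR-1981-5p, miR-1983, miR-5099 and miR-5114.

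Between maDC and imDC, 4 of 18 members were higher in deposited values and 5 lower, with 9.38% and 45% of all miRNAs compared. All 4 higher members, miR-1895, miR-5103, miR-5115 and miR-5126, were thinly backed. The deposited values of miR-5103 were 2.53-fold higher in maDC, but its reads were 3 in maDC and 13 in imDC. Those lower were miR-1198-5p, miR-1965, miR-1983, miR-3968 and miR-5097. On the read scale 6 members reached 100 ppm, with 0 higher (1.52% of all) and miR-1983 and miR-3473b lower (59.1% of all).

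Between DCreg and maDC, 3 of 14 members were higher in deposited values (miR-3968, miR-5097 and miR-5099) and 4 lower (miR-1895, miR-1956, miR-5109 and miR-5126), with 20.3% and 28.3% of all miRNAs compared. The widest of these was miR-5126, 36.8-fold lower in deposited values and 3.92-fold lower (2.35 to 6.88) in recounted reads, which leave out the reads starting 3 bases upstream. Over all exact-stretch reads of miR-5126, 943 in maDC and 25 in DCreg, it was 26.9-fold lower (18.1 to 41.7). On the read scale 5 members reached 100 ppm, with miR-3473b higher (18.1% of all) and 0 lower (24.8% of all). With 14 to 18 members per comparison, these counts are not read as a result about the members, and the imDC and maDC libraries serve in more than 1 comparison.

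Less abundant members with reads gave wider differences. A read difference was listed at 4-fold or more, with at least 30 reads in 1 of the 2 libraries and a 95% interval of the ratio beyond 2-fold. Between imDC and HSC, 5 of 43 members were higher (19.7% of all miRNAs compared) and 1 lower (12.2%). The largest was miR-1956, in the untranslated part of Eif4e, the cap-binding initiation factor gene, on chromosome 3 from 138526425 to 138526446 on the plus strand. It had 13 reads (HSC), 248 (imDC), 351 (maDC) and 106 (DCreg), and was 18.8-fold higher (10.8 to 35.8) in imDC. HSC was the lowest library by a wide margin, and its deposited value of 26 there against 377 in imDC showed the same order.

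The other 4 higher in imDC were miR-1249-3p, miR-1948-3p, miR-1983 and miR-3079-5p. For miR-1983 the reads were 139 (HSC), 664 (imDC), 182 (maDC) and 26 (DCreg). It peaked in imDC, 4.71-fold above HSC (3.92 to 5.70), and was 3.82-fold lower (3.24 to 4.53) in maDC than in imDC. For miR-3079-5p they were 12, 93, 65 and 12, with imDC 7.65-fold above HSC (4.18 to 15.3). The 1 lower member, miR-1970, had 90, 21, 8 and 2 reads and was 4.34-fold lower (2.68 to 7.36) in imDC than in HSC. It was highest in HSC of the 4 libraries.

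Between maDC and imDC, 0 of 40 members were higher (0.606% of all miRNAs compared) and 6 were lower (32.4%). They were miR-1198-5p, miR-1843-5p, miR-1843b-5p, miR-1948-3p, miR-1950 and miR-1965. Reads of miR-1965 numbered 367 (HSC), 402 (imDC), 41 (maDC) and 13 (DCreg), and were 10.3-fold lower (7.44 to 14.5) in maDC than in imDC. Reads of miR-1198-5p, in an intron of Gripap1 on chromosome X, numbered 334, 382, 88 and 17 and were 4.55-fold lower (3.60 to 5.81). For both, the interval of the ratio of imDC to HSC includes 1 (0.972 to 1.31 for miR-1198-5p and 0.936 to 1.25 for miR-1965), and maDC and DCreg were lower.

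The pair miR-1843-5p and miR-1843b-5p come from the scaRNA genes Scarna3b, in an intron of Dcaf5, and Scarna3a, in an intron of Cop1. Their sequences overlap, and reads sharing at least 16 bases with them numbered 422 and 421. Each read went to the longer match and only ties were divided equally, so the 2 members are not independent. Their reads were 74.5, 53, 13.5 and 19.5, and 118.5, 118, 10.5 and 12.5, in HSC, imDC, maDC and DCreg. Lower values in maDC than in imDC were 4.12-fold (2.23 to 8.13) and 11.8-fold (6.27 to 24.7). How far the gap between these 2 folds rests on the assignment of reads was not tested. Reads of miR-1950, in an intron of the kinesin gene Kif20b, numbered 17, 43, 3 and 0, and those of miR-1948-3p 37, 164, 41 and 12. For each of the 6 members, maDC and DCreg were both below imDC.

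Between DCreg and maDC, 4 of 35 members were higher (8.99% of all miRNAs compared) and 5 lower (10.1%). The largest was miR-1941-5p, on chromosome 15 from 101369364 to 101369387 on the plus strand in an intron of the antisense gene Gm35853. It had 27 reads (HSC), 3 (imDC), 4 (maDC) and 92 (DCreg), and was 32.3-fold higher (12.2 to 121) in DCreg than in maDC. Reads of miR-3102-3p numbered 9, 6, 8 and 66, and were 11.6-fold higher (5.55 to 28.0). DCreg was the highest library for both.

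The other 2 higher members lie in snoRNA genes, whose RNAs guide the modification of rRNA. Reads of miR-5121, in Snord33 within the ribosomal protein gene Rpl13a on chromosome 7, numbered 9, 8, 12 and 72 in HSC, imDC, maDC and DCreg, and were 8.43-fold higher (4.54 to 17.1) in DCreg than in maDC. Reads of miR-5117-5p numbered 36, 27, 28 and 90, a difference of 4.51-fold (2.93 to 7.17). The stromal marker miR-143-3p stood at 251, 10.6, 29.1 and 94.8 ppm in the same order, and miR-199a-3p, another stromal marker, at 755, 73.6, 143 and 96.2 ppm. From maDC to DCreg the first was higher and the second lower, and their part in these differences was not tested.

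The 5 lower in DCreg were miR-1249-5p, miR-1929-5p, miR-1983, miR-5107 and miR-5128. Reads of miR-1929-5p, in an intron of the autophagy gene Atg5 on chromosome 10, numbered 54, 91, 45 and 3, and were 10.7-fold lower (3.43 to 53.7) in DCreg than in maDC. Reads of miR-5107 numbered 72, 283, 290 and 48, a 4.30-fold difference (3.16 to 5.97), with imDC and maDC above HSC and DCreg. Reads of miR-1249-5p numbered 11, 24, 52 and 2, an 18.5-fold difference (4.87 to 157) that rests on 2 reads in DCreg.

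**Figure D5:**
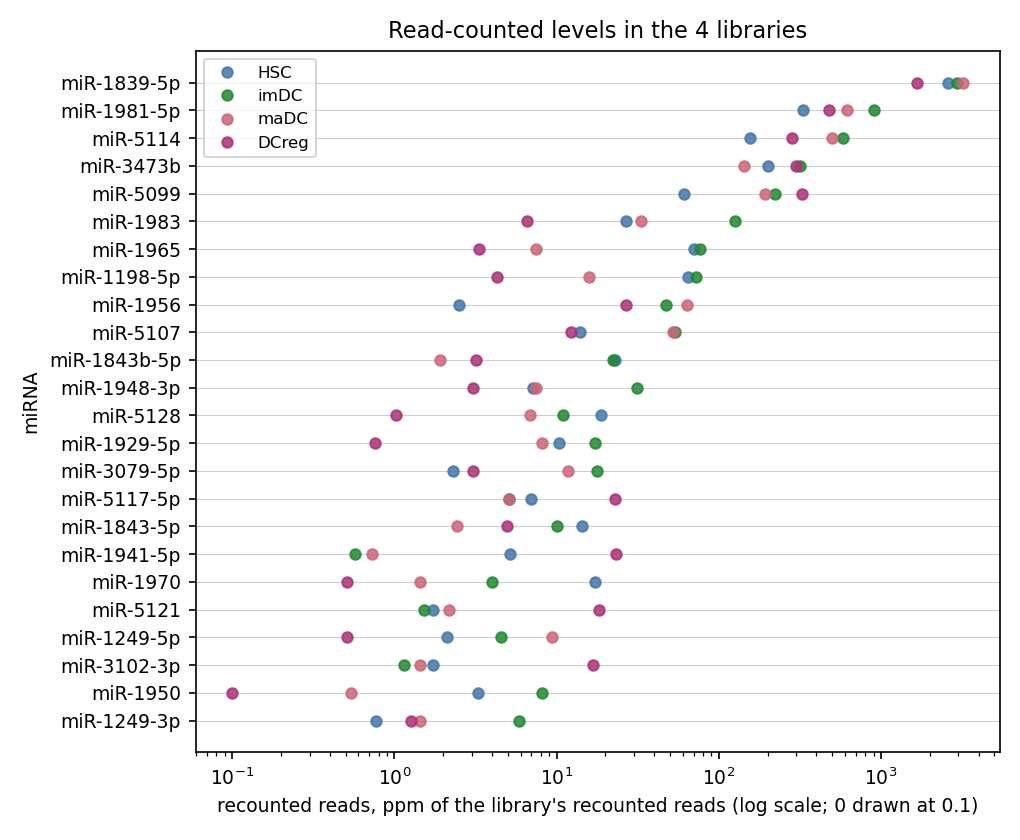
Recounted reads in ppm of the library (x axis, log scale, 0 drawn at 0.1) in the 4 libraries, for members named by the 4-fold rule and 5 abundant members. DCreg is highest for miR-1941-5p, miR-3102-3p, miR-5121 and miR-5117-5p, and HSC is lowest for miR-1956 at 2.50 ppm.

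The 2 arms of a hairpin allow the deposited order to be set beside the reads. Both arms were in the table for 95 hairpins, and 17 of these had at least 100 recounted reads. Over 90% of the reads came from 1 arm in 13 of the 17, and the arm with the larger deposited value was the arm with more reads in all 17. Among hairpins with fewer reads the 2 orders differed for some. For miR-3096b the deposited values were 56 (5p) and 25 (3p), against 25 and 55 reads. Among the 17, the 5p arm of miR-1981 held 99.7% of reads and that of miR-1839 99.6%. The hairpin of miR-1306, in an exon of Dgcr8 on chromosome 16, was more even, with 34.4% of reads on the 5p arm. Its 3p arm, miR-1306-3p, had 235, 161, 49 and 17 reads in HSC, imDC, maDC and DCreg, and its 5p arm 128, 45, 34 and 35, so DCreg was the library in which the 5p arm had more reads.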

How the data were processed

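Small RNA of 4 mouse libraries, 1 per cell population, was sequenced on the Solexa platform. Per the labels' protocols, RNA of 18 to 30 nt was gel purified and amplified for 12 cycles, reads from rRNA, tRNA, mRNA and other small nuclear or nucleolar RNA were removed, and the rest was compared with miRBase release 19. The authors deposited 1 score for each mature miRNA on each hairpin, named normalized counts in the file's first line. Its aligner, mismatches, normalization and genome build were not given in the sources used here. Besides the table, the authors deposited each unique read with its copy number, which is the depth used here.

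Scores were added over hairpins. Reads were recounted by exact match of at least 16 nt to a mature sequence of the table, with the 5′ end within 2 nt and at most 5 unmatched 3′ bases, the longest match winning and ties divided equally. The recount was tested on simulated reads. Library ratios used a pseudocount of 0.5 on scores. Read ratios used exact conditional Clopper-Pearson 95% intervals. Members named are the 12 largest by reads and by score, the 10 with the lowest ratio over a score of 100, those called between libraries, those with a 4-fold read difference, and other arms. Named outside this rule, after their values were seen, were miR-3473c, miR-3963, miR-5111-5p, miR-3065-5p, miR-1935, miR-1971, miR-2137, miR-3969, miR-3970, miR-3971, miR-5105 and the arms of miR-3096b, the members nearest the limits and those named as sharing a seed or an end. Members and lists were chosen with earlier results of these data known. Positions and small RNA genes come from RefSeq (GRCm38.p6) and GENCODE M21, and 8 members' sequences are not used here. Work was done in Python 3.11.15 with numpy 2.4.6 and scipy 1.17.1. Alternatives changed the match rule, the minimum values, the pseudocount and the scaling.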

Additional observations from a re-analysis of the deposited data

How the results depend on the processing

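The 57 read-backed and 49 thinly backed members became 2 and 104 when only reads identical to the whole mature sequence counted. With a minimum deposited value of 100, 32 were read-backed and 27 thinly backed, and with a minimum of 10, 81 were thinly backed. In alternatives chosen after seeing the data, opposite-strand reads alone gave 4 read-backed and 134 thinly backed, and adding reads with 1 or 2 mismatches left 25 thinly backed. The added reads include reads counted on other miRNAs, such as those of miR-142-5p near miR-3964 and miR-3969. Reads with mismatches were not sought for the other miRNAs. Counts under the other match rules stayed within 1.5 times. No share over the other miRNAs was set beside these counts, so they are not read as a result about the members.

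Between imDC and HSC, the 4 higher and 3 lower members became 14 and 20 at a minimum of 10 ppm and 86 and 88 with none; lower members numbered 1 under trimmed mean scaling and 0 in recounted reads. Between maDC and imDC, the 4 and 5 became 12 and 18 at 10 ppm, 44 and 109 with no minimum, and 0 and 2 in recounted reads, with 8 higher under trimmed mean scaling. Between DCreg and maDC, the 3 and 4 became 15 and 20 at 10 ppm, 71 and 77 with no minimum and 1 and 0 in recounted reads, with 2 lower when the 5 most abundant miRNAs were left out of the total. The recount tests fewer members, and the cause of the other shifts was not tested. Beside the counts at other minimums and scalings no share over all miRNAs was set. They are not read as a result about the members. Trimmed mean scaling moved the median log2 ratio of all miRNAs by 0.21 for imDC against HSC and 0.55 for maDC against imDC, and leaving out the top 5 by 0.35 for DCreg against maDC.

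Of 23 called member comparisons, 16 have a recounted value and 7 have no recounted read in either library. In recounted reads 2 of the 16 turned direction, and none of the 23 under the other settings run. Both are maDC against imDC: miR-5103 at log2 -2.02 and miR-5115 at -0.068, which rests on 2 reads. No paired analysis was possible because each cell type has 1 library. Leaving out a replicate was not possible for the same reason.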

Other observations

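Members under the deposited minimum of 30 numbered 186, with a total deposited value of 1693 and 817 recounted reads. Of these, 78 had at least 1 recounted read and 108 had none, and the highest had 234 reads. Over all 327 members, 188 had a recounted read, 139 had none and 84 had reads in all 4 libraries.

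Of the members at the minimum, 3 of 141 mature sequences end in the bases cca (miR-3060-3p, miR-3968 and miR-5097), against 5 of 383 other miRNAs. The seed TAAAGGC was held by both miR-1981-5p and miR-1971, and the seed AGCTCAG by both miR-5111-5p and miR-5112. For miR-1971, the deposited value was 7, 10, 10 and 3 in HSC, imDC, maDC and DCreg, and the recount gave 120 reads in all.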
